A study of Mus musculus with 7 samples.

Results

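Binding of 3 transcription factors was examined at the loci of 8 genes that define striatal neurons: Foxp1, Foxp2, Bcl11b, Ebf1, Isl1, Ppp1r1b, Penk and Drd2. The members are the binding events, each a single base position on the mouse build mm9, that lie in a fixed window around each gene. The windows cover 3340 kb in all, and they hold 206 of the 137595 events in the 3 deposited tables: 98 of 64579 FRA2 events, 70 of 46583 JUND events and 38 of 26433 SOX2 events. The rule uses position alone and no read value, though the windows were chosen with earlier results of these data known. Events in a window need not act on the gene it is named for, since other genes neighbour it (in RefSeq, Stard3 next to Ppp1r1b and Ankk1 next to Drd2, for example).

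The events come from chromatin immunoprecipitation followed by sequencing (ChIP-seq) in a pair of mouse cell lines, STHdhQ7 (Q7 below) and STHdhQ111 (Q111 below). Both are immortalised lines labelled as derived from embryonic day 14 striatum of 129SvEv/CD1 mice. Q7 carries the HdhQ7/Q7 genotype, a huntingtin gene with a short run of glutamine codons on both alleles, and Q111 carries HdhQ111/Q111, with a run in the length range of Huntington's disease. Cells were used below passage 15, after growth at 33 °C and 2 days at 39 °C, a temperature that halts their division. The antibodies were against FRA2, JUND and control IgG in both lines, and against SOX2 in the Q7 line alone. All 7 samples pool 2 replicates and each genotype is 1 line, so every difference below is between a pair of pooled libraries, with no replicate check, and line and genotype cannot be told apart. The tables hold binding and not expression, so the striatal label was not checked against marker expression.

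FRA2 and JUND are subunits of AP-1, a dimer of one FOS-family and one JUN-family protein (or of JUN-family proteins) that binds the sequence TGACTCA and responds to growth signals, stress and neuronal activity. SOX2 is a transcription factor of neural stem and progenitor cells that binds DNA through its HMG box. The medium spiny neurons of the striatum are set up by transcription factors including FOXP1, FOXP2, BCL11B, EBF1 and ISL1. Their mature state is marked by effector genes: Ppp1r1b encodes a phosphoprotein that relays dopamine signals to protein phosphatase, Penk encodes the precursor of the enkephalin opioid peptides, and Drd2 encodes a dopamine receptor of the indirect pathway.

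Depth, as reads summed over listed events, was 3340554 (Q7) and 3498922 (Q111) for FRA2, 1660158 and 1609483 for JUND, and 1193914 for SOX2. Folds are Q111 over Q7, scaled by the median ratio of events marked present in both lines. An event was called higher in a line when a two-sided exact binomial test on its reads gave a Benjamini-Hochberg adjusted p below 0.05 over the whole table and the fold was at least 2. That test compares 2 libraries and covers counting error only, as do all 95% intervals below. Control reads, from a control the headers do not name, averaged 4.3 reads per FRA2 event in Q7 and 5.71 in Q111, and 4.32 and 7.19 per JUND event. Scaling by these control totals shifts the median log2 fold of all events from 0 to -0.36 for FRA2 and from -0.13 to -0.79 for JUND, and folds below are relative to the median scaling unless stated.

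Promoter sequences were looked up in RefSeq for the same genes, in build GRCm38.p6, which is not the build of the events, so no distance from an event to a start was taken. The table held 8 promoters of 5 of the genes (3 of Foxp1, 2 of Ebf1, and 1 each of Bcl11b, Isl1 and Drd2), each 300 bases long. The AP-1 sequence TGACTCA (with TGAGTCA, its reverse complement) was found in 0 of these 8, against 5.19% of 32544 promoters. The SOX sequence ACAATGG (either strand) was found in 1 of 8, against 3.68% of all. That promoter, of 1 of the 3 starts of Foxp1 (chr6:99028299-99028548, minus strand), is shown up to the start because it is the one with a match, and capitals mark the match on the other strand, which begins 86 bases before the start. A match is a description of letters and not a bound site.
Foxp1 promoter: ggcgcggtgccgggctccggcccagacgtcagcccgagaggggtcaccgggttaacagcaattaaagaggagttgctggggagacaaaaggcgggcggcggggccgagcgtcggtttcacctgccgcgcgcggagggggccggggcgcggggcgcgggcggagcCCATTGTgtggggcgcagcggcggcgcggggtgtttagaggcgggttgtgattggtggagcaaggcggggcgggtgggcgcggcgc

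The windows held unequal amounts of binding. The Foxp1 window (chromosome 6, 98800000 to 99600000) held 44 FRA2, 38 JUND and 19 SOX2 events. The Ebf1 window (chromosome 11, 44350000 to 44900000) held 27, 19 and 8. The Penk window (chromosome 4, 3950000 to 4170000) held 11, 6 and 3, and the Bcl11b window (chromosome 12, 109050000 to 109400000) held 10, 5 and 4. These 4 windows contained nearly all of the members. The Drd2 window (chromosome 9, 49050000 to 49320000) held 3 FRA2 events and no other, the Ppp1r1b window (chromosome 11, 98110000 to 98310000) held 2 FRA2, 2 JUND and 3 SOX2 events, the Foxp2 window (chromosome 6, 14800000 to 15450000) held 1 FRA2 event, and the Isl1 window (chromosome 13, 116950000 to 117250000) held 1 SOX2 event.

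Per length, FRA2 events numbered 5.5 per 100 kb at Foxp1, 5 at Penk, 4.91 at Ebf1 and 2.86 at Bcl11b, against 2.52 per 100 kb over the span of all listed events. At Drd2, Ppp1r1b and Foxp2 there were 1.11, 1 and 0.154 per 100 kb, and Isl1 had none. The forkhead genes Foxp1 and Foxp2 differed, with 44 FRA2 events in 800 kb and 1 in 650 kb. JUND was also densest at Foxp1, and the order of Ebf1 and Penk was exchanged, with 4.75 per 100 kb at Foxp1, 3.45 at Ebf1, 2.73 at Penk and 1.43 at Bcl11b, against 1.82 in its whole table. A window without a listed event had no event that passed the authors' threshold, which is not the same as no binding.

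AP-1 binding differed between the lines at many of the members. Of 98 FRA2 events, 32 (32.7%) were called higher in Q111 and 15 (15.3%) higher in Q7, where the whole table had 23.3% and 21.3%, or 44.6% in either direction. For JUND, 28 of 70 events were called higher in Q111, against 17.4% of all JUND events, and 12 (17.1%) higher in Q7, against 23.3% (40.6% in either direction). By a 2-fold difference alone, without the test, the numbers were 34 and 17 for FRA2 (24.2% and 22.6% of all events) and 30 and 12 for JUND (18.7% and 25.0%). The median log2 fold of the members was 0.39 for FRA2 and 0.65 for JUND, beside 0 and -0.13 over all events. The split depended on the scaling: with control totals, 24 FRA2 members were called higher in Q111 and 20 higher in Q7, and for JUND the balance turned to 12 higher in Q111 and 22 higher in Q7. That scaling moves all events alike: the share of calls that were higher in Q111 went from 52.2% to 35.0% over all FRA2 events and from 68.1% to 54.5% over the members, and for JUND from 42.8% to 16.8% and from 70.0% to 35.3%. It uses the control totals of the whole tables, with Q111 over Q7 ratios of 1.33 for FRA2 and 1.66 for JUND. Control reads at the members alone had ratios of 1.26 and 1.22, and scaling by these was not tested. Of the members, 43 FRA2 and 30 JUND events were marked present in Q111 alone, and 21 and 15 in Q7 alone. Over all events these were 16597 and 11374 in Q111 alone, and 17251 and 17904 in Q7 alone. Most such members were listed through the line with more reads, so their folds and calls are not independent of the listing. Among them are FRA2 at 98964005, 99014207, 109126430 and 44354855, and JUND at 98964022, 99014227 and 44720155, named below. Restricted to events marked present in both lines, 5 of 34 FRA2 and 4 of 25 JUND members were called higher in Q111, and 1 of each higher in Q7. Over all events under that restriction, 50.8% of the FRA2 calls and 39.4% of the JUND calls were higher in Q111.

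**Figure D1:**
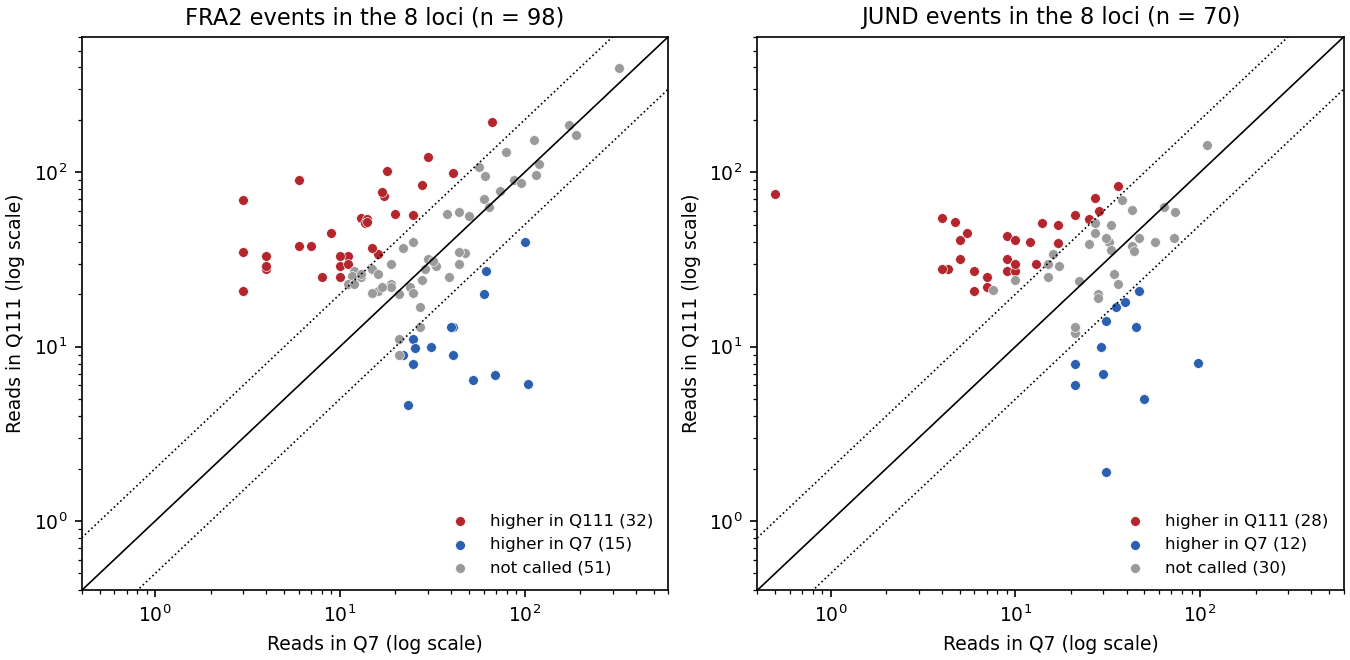
Reads in Q7 (x axis, log scale) and Q111 (y axis, log scale) for each FRA2 event (left, n = 98) and JUND event (right, n = 70) in the 8 loci; the solid line marks equal reads and dotted lines a 2-fold difference, unscaled. The 32 FRA2 and 28 JUND events called higher in Q111 have mostly few reads in Q7, while the FRA2 event with the most reads (323 and 399) lies near the line; scaling by control totals would lower all log2 folds.

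Transcription factor and effector genes were compared by their counts. At the 5 transcription factor loci, 25 of 82 FRA2 events were called higher in Q111 and 13 in Q7, and the median log2 fold was 0.35. At the 3 effector loci, 7 of 16 were called higher in Q111 and 2 in Q7, and the median was 0.99. JUND gave 23 and 12 of 62 events at the transcription factor loci (median 0.6) and 5 and 0 of 8 at the effector loci (median 1.51). The difference between these gene groups was not tested. Over all events, 23.3% of FRA2 and 17.4% of JUND events were called higher in Q111, and 21.3% and 23.3% higher in Q7. JUND had no event at Foxp2, Isl1 or Drd2, and FRA2 had none at Isl1. Of the effector events, 11 FRA2 and 6 JUND events belong to Penk alone. All 5 JUND calls at the effector loci were at Penk, at events marked present in Q111 alone.

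Foxp1 encodes a forkhead repressor present in most medium spiny neurons, and its locus held the most binding and the widest range of folds. Summed over 44 events, FRA2 reads were 2117.8 in Q7 and 2515.1 in Q111, a scaled ratio of 1.15 (1.09 to 1.22). JUND sums over 38 events were 1034.1 and 1283.2, a ratio of 1.18 (1.09 to 1.28). Both ratios turn below 1 with scaling by control totals (log2 of -0.16 and -0.42). Control reads at the FRA2 events of the window summed to 195.6 in Q7 and 262.9 in Q111, a ratio of 1.34 beside 1.33 in the whole table. At the JUND events of the window the control ratio was 1.17, beside 1.66 in the whole table. The FRA2 and JUND sums covered events that differed in both directions: FRA2 log2 folds ran from -4.04 to 3.75, and JUND from -3.78 to 6.16. FRA2 events higher in Q111 made up 27.3% (12 of 44), beside 27.8% of all FRA2 events on chromosome 6. JUND events higher in Q111 made up 34.2% (13 of 38), beside 21.1% on that chromosome. Events higher in Q7 made up 18.2% of FRA2 events (8 of 44), beside 18.8% on the chromosome. For JUND they made up 18.4% (7 of 38), beside 21.0%.

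The FRA2 event with the most reads in the 8 loci, at chromosome 6 position 98851435, had 323 reads in Q7 against 399 in Q111. Its fold of 1.2 (1.03 to 1.39) was below the limit. JUND 21 bp away had 109 and 143.9 reads, a fold of 1.25 (0.973 to 1.63), and SOX2 had 59 reads in Q7 at 26 bp. All 3 proteins were therefore listed at this site, with AP-1 reads close in both lines.

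The Foxp1 event farthest towards Q7 was at position 98964005, with 104.7 FRA2 reads in Q7 against 6.1 in Q111. It was 16.5-fold higher in Q7 (8.03 to 50.4, exact binomial test, adjusted p = 2.72e-23) and ranked 344 of 64579 FRA2 events in that direction. JUND at position 98964022 had 97.1 and 8.1 reads, 11.9-fold higher in Q7 (6.22 to 30.4, exact binomial test, adjusted p = 2.95e-19). The strongest SOX2 event of the 8 loci, with 146.7 reads in Q7 against 2.4 control reads, lay 29 bp from the FRA2 position. A neighbouring FRA2 event 295 bp before it had 69.3 and 6.9 reads, and with events within 500 bp summed the log2 folds were -3.74 for FRA2 and -3.68 for JUND. The site was thus high for 3 proteins in Q7 and low for both AP-1 subunits in Q111.

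In the other direction, FRA2 at position 99014207 had 6 reads in Q7 against 90 in Q111, a difference of 13.5-fold (6.42 to 40.6, exact binomial test, adjusted p = 3.82e-18). JUND at position 99014227 had 0.5 reads in Q7, which rounds to 0, and 74.9 in Q111. Against a floor of 3 reads it was at least 23.8-fold higher in Q111 (lower limit of the two-sided interval 18.9), and its fitted log2 fold of 6.16 ranked 16 of 46583 JUND events. A second JUND event 172 bp before it had 5.5 and 45.1 reads, and the log2 fold was 4.14 with both summed. The nearest SOX2 event lay 32147 bp from the FRA2 position. The control reads at the FRA2 position were 2.4 in Q7 and 1 in Q111, and at the JUND position 2.1 and 0.8, so both AP-1 subunits stood far above the control in Q111.

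Sites with opposite calls lay close together at Foxp1. At 98897991 JUND had 50 reads in Q7 against 5 in Q111, and 1797 bp further on, at 98899788, it had 28.2 and 60.4. FRA2 had 40 and 13 reads at 98898902 and 28 and 84.1 reads at 98899787, only 885 bp away. The FRA2 event at 98969450, with 3 and 35 reads, followed 5445 bp after the site at 98964005 that was 16.5-fold higher in Q7. Neighbouring FRA2 events with opposite calls within 10 kb occurred at 4 places in the Foxp1 window. Such JUND events occurred at 2 places there, with 1 more at Ebf1. How often such neighbours occur in the whole tables was not computed, so these numbers do not set Foxp1 apart. Over all events, 44.6% of FRA2 and 40.6% of JUND events were called in either direction. FRA2 events were also denser at Foxp1, with 5.5 per 100 kb against 2.52 in the whole table. Towards the far end of the window, 3 FRA2 events between 99555034 and 99577318 were all called higher in Q111, with 34 reads in Q7 against 144 in Q111 between them. These neighbours and stretches, and those of Penk below, were picked after their values were seen, so they are described without a test.

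**Figure D2:**
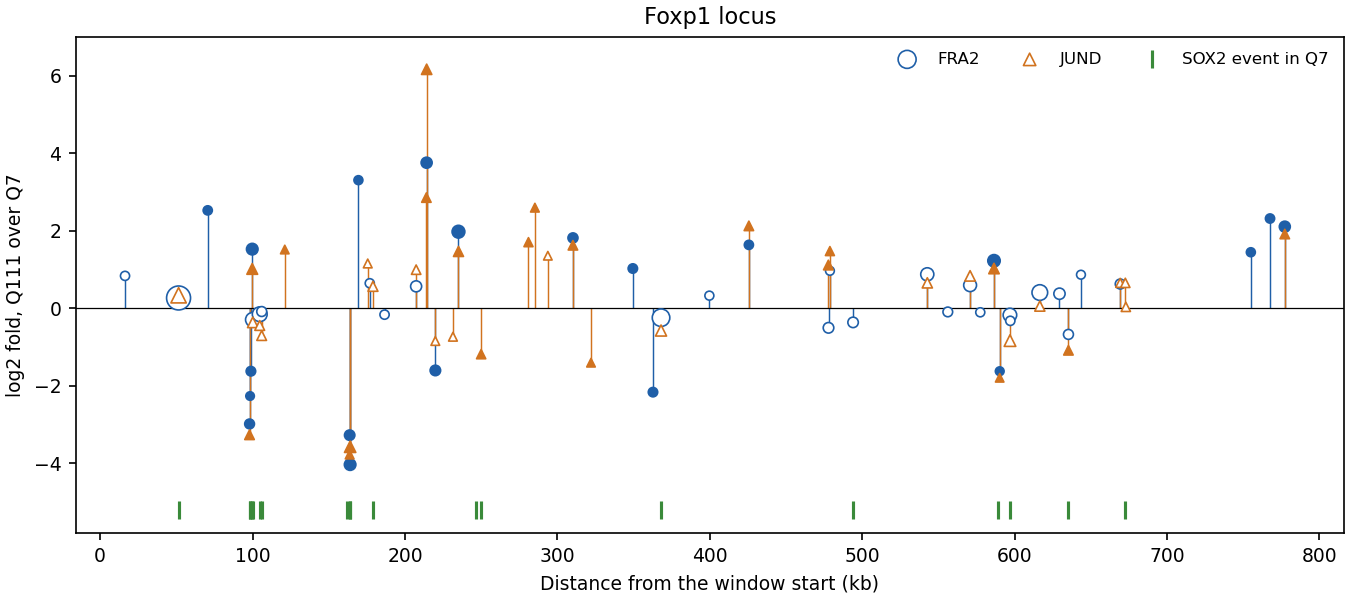
log2 fold of reads (Q111 over Q7, y axis) against distance from the start of the Foxp1 window in kb (x axis), for FRA2 (circles) and JUND (triangles); filled symbols were called different, symbol area grows with total reads, and green ticks mark SOX2 events in Q7. The events around position 98964005 lie at -3.28 to -4.04 beside SOX2 ticks, those around 99014207 reach 6.16 (0.5 reads in Q7) with no tick close by, and the large open symbols, at the events with the most reads, lie at 0.26 and 0.33.

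Foxp2, the forkhead relative of Foxp1, had the FRA2 event at position 15271483 alone, with 30 reads in Q7 against 32 in Q111. Its fold was 1.03 (0.608 to 1.76), and the nearest JUND event was 222326 bp away. Isl1, a LIM-homeodomain gene of direct-pathway neurons and cholinergic interneurons, had no FRA2 or JUND event in its window. Its single SOX2 event, at position 116956975 of chromosome 13, had 23 reads and lay 360465 bp from the nearest FRA2 event. That FRA2 event is outside the window and had 46 reads in Q7 against 7 in Q111.

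Bcl11b encodes a zinc finger protein needed for medium spiny neuron differentiation. Its 10 FRA2 events summed to 268.8 reads in Q7 against 401.1 in Q111, a ratio of 1.45 (1.23 to 1.69), and its 5 JUND events to 165 and 257, a ratio of 1.48 (1.21 to 1.81). With control totals the log2 ratio was 0.17 for FRA2 and -0.1 for JUND. Over the 3 FRA2 events present in both lines the FRA2 log2 ratio was -0.05. The FRA2 event with most reads, at chromosome 12 position 109189176, had 74 reads in Q7 against 78 in Q111, and JUND at the same base had 43 and 61. The event farthest towards Q111, at position 109126430, had 3 FRA2 reads in Q7 against 69 in Q111, a 19.2-fold difference (lower limit 7.31). No JUND event lay within 42 kb of it, the nearest being 42924 bp away. JUND at position 109169354 had 36 and 83 reads (2.18-fold, 1.47 to 3.34), with FRA2 at 20 and 57.8 reads 9 bp away and SOX2 28 bp away with 33 reads in Q7. This JUND call was lost with control totals (log2 fold of 0.46) and with an added dispersion of 0.05. The single FRA2 event called higher in Q7, at 109351390, had 22 and 9 reads, and it was not called with unscaled reads (adjusted p = 0.0524 by the exact binomial test), with the chromosome's own median (0.0705) or with an added dispersion of 0.05. It too had a SOX2 event nearby, at 48 bp with 24 reads.

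Ebf1 encodes a helix-loop-helix factor of direct-pathway neuron development. Its 27 FRA2 events summed to 980 reads in Q7 against 1378 in Q111, a ratio of 1.36 (1.25 to 1.48), and its 19 JUND events to 535 and 659, a ratio of 1.17 (1.04 to 1.32). The JUND ratio was below 1 over the 6 events present in both lines (log2 of -0.08) and with control totals (-0.43). The FRA2 log2 ratio went from 0.45 to 0.08 with control totals. Scaling by the chromosome's own median gave log2 ratios of 0.29 for FRA2 and 0.04 for JUND. Control reads at the FRA2 events had a ratio between the lines of 1.04, against 1.33 in the table and 1.55 over chromosome 11. At the JUND events the control ratio was 1.11, against 1.66 in the table and 1.98 over chromosome 11. FRA2 was called higher in Q111 at 10 events (37.0%, against 24.2% on chromosome 11) and higher in Q7 at 4 (14.8%, against 16.8%). JUND was called higher in Q111 at 8 events (42.1%, against 18% on that chromosome) and higher in Q7 at 5 (26.3%, against 16.5%).

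The Ebf1 event with most reads, at chromosome 11 position 44715854, had 174 FRA2 reads in Q7 against 188 in Q111 (1.05-fold, 0.847 to 1.29). JUND 15 bp away had 73 and 59 reads, and SOX2 had 52 reads in Q7. Neither was called with the median scaling, while with control totals JUND was called higher in Q7 (log2 fold of -1.04, exact binomial test, adjusted p = 0.000176) and FRA2 was not. At position 44354855 FRA2 had 18 reads in Q7 against 102 in Q111, a difference of 5.37-fold (3.3 to 9.63, exact binomial test, adjusted p = 1.68e-13). JUND at position 44720155 had 4 and 55 reads, an 11.7-fold difference (4.83 to 49.7), and FRA2 105 bp away had 4 and 28. Higher in Q7 were FRA2 at 44592652, with 100 and 40 reads (2.56-fold, 1.77 to 3.82), and JUND at 44581655, with 30 and 7 reads (4.28-fold, 1.94 to 12.2). A SOX2 event with 34 reads lay 60 bp from that JUND position and 2 bp from a FRA2 event with 41 and 13 reads.

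Penk had the highest summed ratio for both AP-1 subunits, among the loci that held events of each. Its 11 FRA2 events summed to 201.7 reads in Q7 against 392.8 in Q111, a ratio of 1.89 (1.59 to 2.24), and its 6 JUND events to 68 and 202, a ratio of 2.83 (2.14 to 3.78). These ratios stayed above 1 with control totals, with log2 ratios of 0.55 for FRA2 and 0.84 for JUND. FRA2 was called higher in Q111 at 5 of 11 events (45.5%, against 25.7% on chromosome 4) and JUND at 5 of 6 (83.3%, against 17.8%). Control reads at the FRA2 events were 40.5 and 44.8 in the 2 lines. In this window 9 of the 11 FRA2 and 5 of the 6 JUND events were marked present in Q111 alone. Over all events these were 16597 of 64579 for FRA2 and 11374 of 46583 for JUND. Only 1 FRA2 event and no JUND event at Penk was present in both lines. Most were thus listed through the line in which they had more reads, so the ratios and calls are not independent of the listing.

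At chromosome 4 position 4106592, the Penk event with the most reads, FRA2 had 17.4 reads in Q7 against 73.6 in Q111 (4.01-fold, 2.46 to 7.62), and JUND 36 bp away had 14 and 51 (3.38-fold, 1.89 to 6.78). At 4107653 FRA2 had 4 and 29.2 reads (6.39-fold, 2.47 to 27.5), and JUND 34 bp away had 4.7 and 52 (9.6-fold higher in Q111, 3.98 to 31.7, exact binomial test, adjusted p = 4.89e-09). In Q7 these JUND reads stood beside 4.6 control reads. Between positions 4103026 and 4123188 all 7 FRA2 events had more reads in Q111, and 4 of them were called, with sums of 90.7 and 287.8. The 5 JUND events in this stretch were all called higher in Q111, with sums of 40 and 183. No SOX2 event lay in the stretch, and the 2 SOX2 events nearest to it, at 4136092 and 4143827 with 46 and 35 reads, had no AP-1 event within 3 kb. The single Penk event called higher in Q7 was FRA2 at 3950129, close to the window's start, with 62 reads in Q7 against 27 in Q111 (2.35-fold higher in Q7, 1.49 to 3.88) and a SOX2 event (41 reads) 178 bp away. It was not called with an added dispersion of 0.05. With the window narrowed at both sides, which drops that event, the log2 ratios were 1.32 for FRA2 and 2.12 for JUND.

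**Figure D3:**
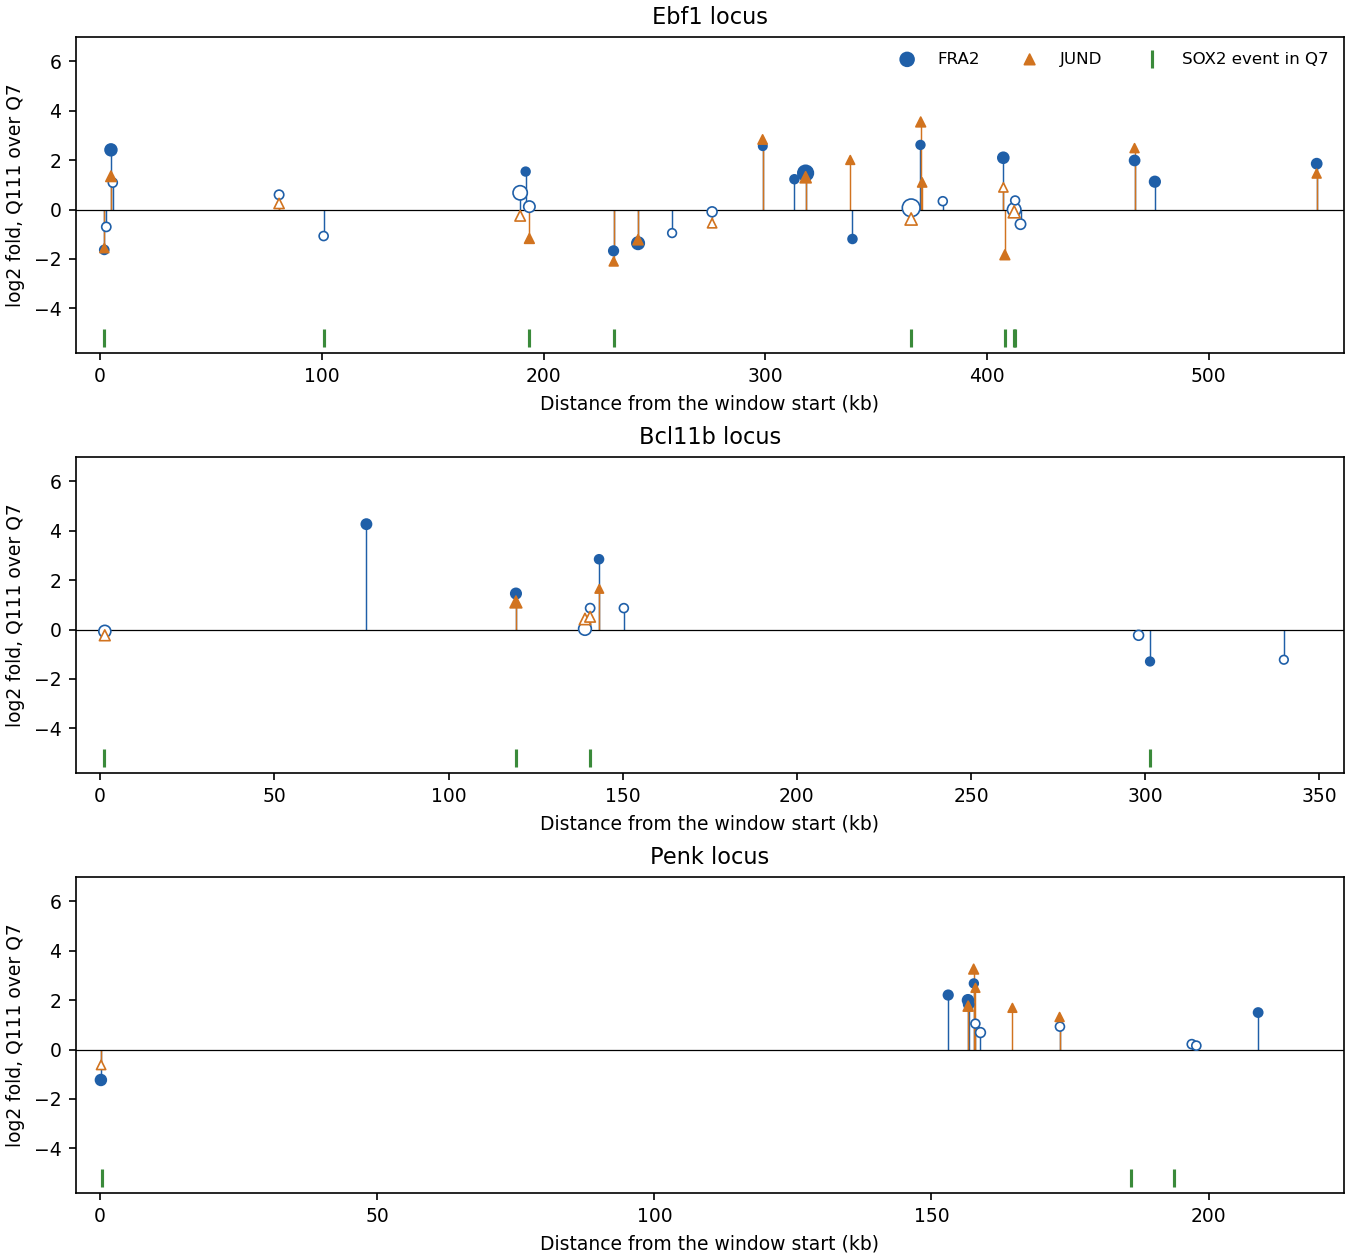
The same plot for the Ebf1 (top), Bcl11b (middle) and Penk (bottom) windows, with log2 fold on the y axis and distance from each window's start in kb on the x axis; filled symbols were called different and green ticks are SOX2 events in Q7. At Penk the group of events between 4103026 and 4123188 lies above 0 with no SOX2 tick among them, while Ebf1 has called events on both sides of 0.

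Ppp1r1b and Drd2 had few events. At Ppp1r1b, FRA2 at chromosome 11 position 98300320 had 60 reads in Q7 against 70 in Q111 (1.13-fold, 0.789 to 1.62), and JUND 12 bp away had 37.7 and 69.7 (1.75-fold, 1.16 to 2.67), neither called. The other FRA2 event, at 98204569, had 25.5 and 9.8 reads and was 2.61-fold higher in Q7 (1.25 to 6.24), a call lost with the added dispersion. Control reads in this window were 9.4 in Q7 and 20.1 in Q111 at the FRA2 events and 7.3 and 25.5 at the JUND events, ratios of 2.14 and 3.49 against 1.33 and 1.66 in the tables; their part in the result was not tested. With control totals the JUND log2 ratio of the window, 0.63, became -0.03. At Drd2, FRA2 had 15 and 37 reads at position 49291540 of chromosome 9 (2.34-fold, 1.28 to 4.69) and 11 and 30 at 49218764 (2.57-fold, 1.29 to 5.84), both called higher in Q111. The third, at 49298918, had 28 and 24 reads. Control reads at the 3 Drd2 events summed to 10.8 in Q7 and 23.7 in Q111, and with control totals neither call held (log2 folds of 0.87 and 1), nor did it with the added dispersion. The call at 49291540 was also lost with control reads subtracted (log2 fold of 1.01, exact binomial test, adjusted p = 0.0749).

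**Figure D4:**
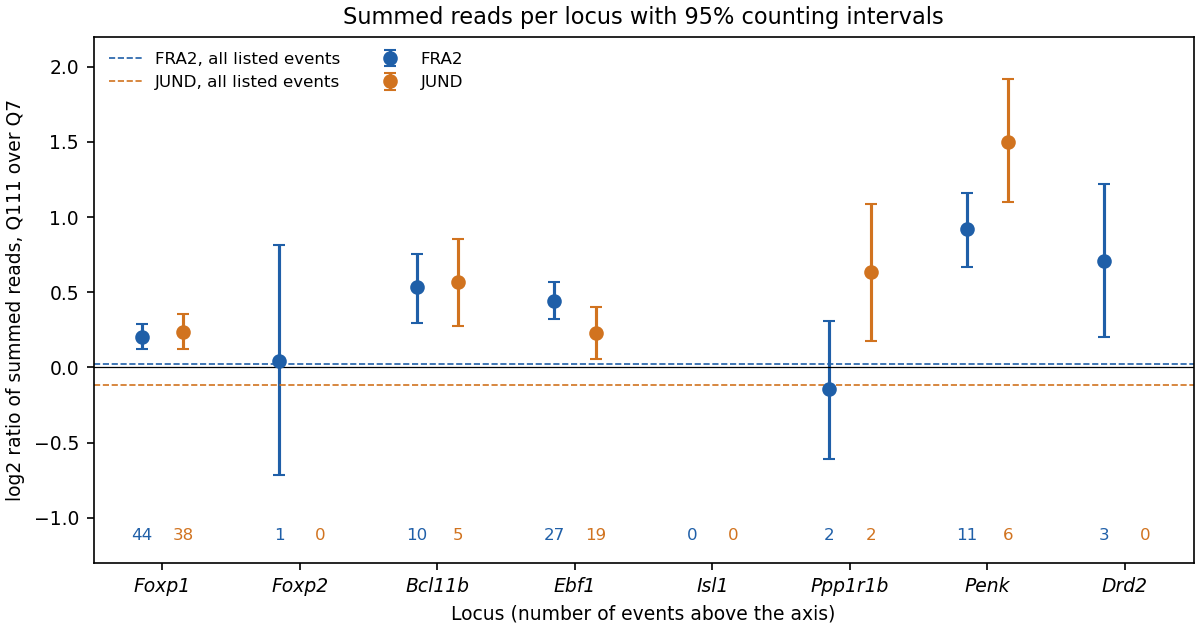
log2 ratio of summed reads (Q111 over Q7, y axis) for FRA2 (blue) and JUND (orange) in each locus (x axis), with 95% counting intervals; numbers give events per window and dashed lines the ratio over all listed events of each table. Penk has the highest ratios (0.92 and 1.5) and Foxp2 and Ppp1r1b have FRA2 intervals that include 0; with scaling by control totals the JUND points of Foxp1, Ebf1, Bcl11b and Ppp1r1b fall below 0.

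FRA2 and JUND were compared at the 51 pairs of events that were each other's nearest within 100 bp, at a median distance of 17 bp. Both were called higher in Q111 at 16 pairs and higher in Q7 at 7, 20 pairs were called for neither, 3 for FRA2 alone and 5 for JUND alone. Of the 35176 pairs in the whole tables, 5295 were called higher in Q111 for both, 6114 higher in Q7 for both and 17340 for neither. Opposite calls were found at 0 of the 51 pairs and at 4 of all pairs. JUND was listed within 100 bp for 53.1% of the FRA2 members (Wilson interval 43.3 to 62.6%), against 55.3% of all FRA2 events. The difference between the 2 proteins' folds, tested by an exact hypergeometric test on the 4 read numbers, passed an adjusted p of 0.05 at 0 of 51 pairs, and 2 pairs (3.92%) had an unadjusted p below it. Over all pairs 76 passed after adjustment and 8.32% before it. Both of the locus pairs lie at Ebf1. At position 44539464 FRA2 had 79 reads in Q7 against 131 in Q111, with JUND at 43 and 38. At position 44543619 FRA2 had 50 and 56, with JUND at 39 and 18 (adjusted p = 0.396 by the exact test). A p above the threshold does not show that the proteins moved alike, and the members near the minimum of 21 listed reads carry wide intervals.

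SOX2 was mapped in Q7, and 29 of its 38 events in the loci (76.3%, Wilson interval 60.8 to 87.0%) had FRA2 or JUND within 100 bp, beside 69.9% of all SOX2 events. All 8 SOX2 events at Ebf1 and all 4 at Bcl11b had such a neighbour, 15 of 19 at Foxp1, 2 of 3 at Ppp1r1b, and none of 3 at Penk or 1 at Isl1. The SOX2 event with the most reads was the Foxp1 event of 146.7 reads described above, and at the other loci the highest had 62 reads (Bcl11b, position 109190605), 52 (Ebf1, 44715804), 46 (Penk, 4136092), 25 (Ppp1r1b, 98261672) and 23 (Isl1). JUND stood within 100 bp of those at Bcl11b (33 and 50 reads), Ebf1 (73 and 59) and Ppp1r1b (31 and 42), none called with the median scaling.

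Within the loci, AP-1 events were split by whether a SOX2 event lay within 1 kb. Of 31 FRA2 events near SOX2, 3 were called higher in Q111 and 10 in Q7, and the median log2 fold was -0.3. Of 67 FRA2 events farther away, 29 were called higher in Q111 and 5 in Q7, and the median was 0.87. JUND gave 2 and 10 of 29 events near SOX2 (median -0.45) and 26 and 2 of 41 farther away (median 1.35). In the whole tables the shares higher in Q111 were 5.07% near and 33.4% away for FRA2, and 4.81% and 30.1% for JUND, beside 43.3% and 63.4% of the members away from SOX2. The shares higher in Q7 near SOX2 were 32.3% of the FRA2 members and 32.3% of all FRA2 events there, and 34.5% and 32.4% for JUND. Away from SOX2 they were 7.46% against 15.2% for FRA2 and 4.88% against 14% for JUND. The split of calls by SOX2 is therefore present in the whole tables as well. Without Foxp1 the counts near SOX2 were 2 and 4 of 15 for FRA2 and 1 and 4 of 13 for JUND, and farther away 18 and 3 of 39 and 14 and 1 of 19. Median FRA2 reads near SOX2 were 41 in Q7 and 28.3 in Q111, and those farther away 17.4 and 32. Since SOX2 was mapped in Q7 alone, the split itself rests on the Q7 line, and its part in the result was not tested.

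**Figure D5:**
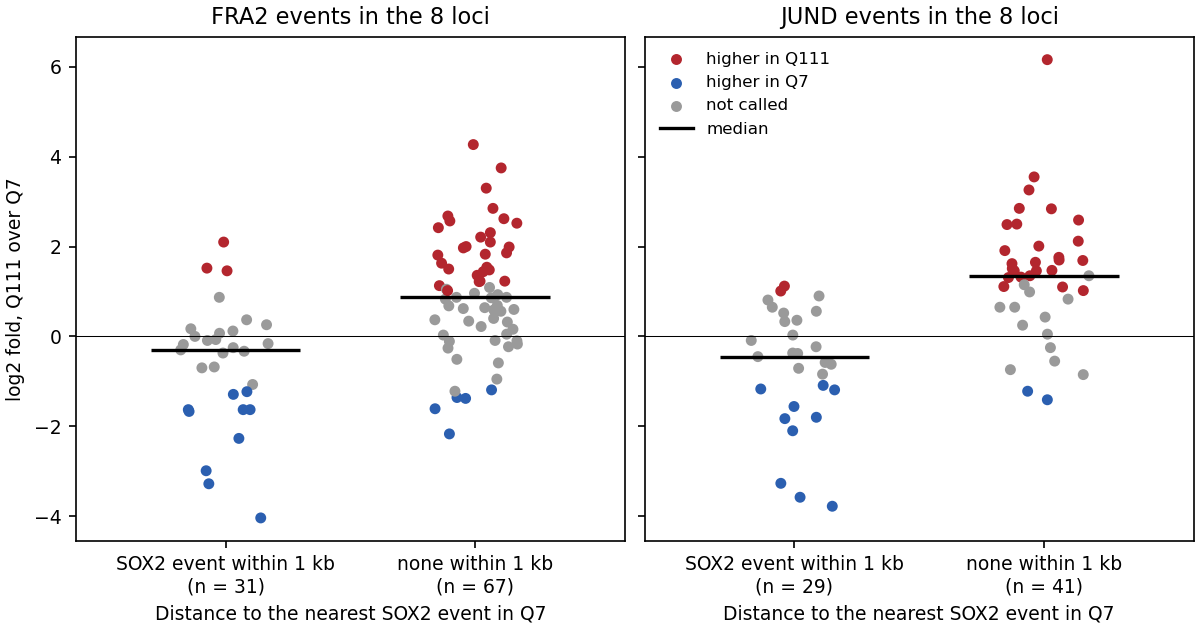
log2 fold (Q111 over Q7, y axis) of each FRA2 event (left) and JUND event (right) of the 8 loci, split on the x axis by a SOX2 event within 1 kb in Q7; points are events coloured by call and bars are medians. The medians are -0.3 near and 0.87 away for FRA2, and -0.45 and 1.35 for JUND; scaling by control totals lowers every point.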

How the data were processed

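FRA2, JUND and SOX2 binding events were taken from 3 deposited tables, 1 line per event. Titles gave the groups. Alignment was with Bowtie 0.12.7 to mm9, per the submitters' processing notes. The event caller named with the tables is GPS, of a version not given in the sources used. Expected counts, deposited by the authors in the IP columns, are unscaled reads assigned to an event, whole in 78.0% to 89.6% of values, and rounded here for tests. The control columns hold a signal made by the authors, control reads times a factor. The deposited q-value (as −log10) and present marks were used for filters, and 22 further value columns were not used.

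The windows and the lists were chosen with earlier results of these data known. The Q111 share of reads was tested by a two-sided exact binomial test for each event (smaller tail doubled, scipy 1.17.1), with the expected share from the median log2 ratio of events present in both lines (0.05 for FRA2, 0.07 for JUND). Benjamini-Hochberg adjustment ran over all 64579 FRA2 or 46583 JUND events, and folds used a pseudocount of 0.5 reads. Intervals are Clopper-Pearson for folds and Wilson for percentages, at 95%. In simulated tables with 200 events changed 4-fold, 65.5% (FRA2) and 70.5% (JUND) were called. The simulated reads had counting error alone, and far fewer events changed than were called in the real tables. These rates therefore do not give the share of real differences found here. Named events were, per locus and protein, the one with the most reads and the called one whose interval lay farthest from 1 in each direction. The exact hypergeometric test at FRA2 and JUND pairs, adjusted over all 35176 pairs, was added later. PCR reads are not independent molecules. Alternatives changed scaling, filters, merging of events, fold limit, dispersion (a normal approximation on the log ratio) and window edges. No annotation of mm9 was used here, so exons and introns are not given.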

Additional observations from a re-analysis of the deposited data

How the results depend on the processing

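No paired analysis was possible because each sample pools its replicates, and for the same reason no replicate was left out. Of the values recomputed under the alternatives, 89 counts and medians, 122 locus ratios and 421 values of named events stayed within the limits. The medians, ratios and folds among them also kept their direction. Some had little or no room to move, so these numbers do not measure robustness. A limit of 40 control reads removed no member, since the highest control value was 17.5 for FRA2 and 18.3 for JUND. Summing events within 100 bp left 98 FRA2 and 70 JUND members. A changed fold limit or an added dispersion cannot alter a log2 fold or a median. Of the counts and medians 23 moved further and 1 reversed, of the locus ratios 19 moved and 12 reversed, and of the named events 20 lost a call, 2 gained one and 8 reversed. Where an alternative removes events, fewer were counted, and for the others the cause was not tested. With scaling by control totals the FRA2 median log2 fold was 0.02, JUND calls were 12 higher in Q111 and 22 higher in Q7, and the JUND median was -0.01. Under that scaling the log2 locus ratio was -0.16 at Foxp1 and -0.32 at Foxp2 for FRA2, and -0.42 at Foxp1, -0.1 at Bcl11b, -0.43 at Ebf1 and -0.03 at Ppp1r1b for JUND. The log2 folds of the FRA2 events at 98851435, 15271483, 109189176, 44715854 and 98300320 were then -0.1, -0.32, -0.33, -0.3 and -0.19, and that of JUND at 98851456 was -0.34. Scaling by each chromosome's median gave -0.08 for the FRA2 ratio at Foxp2 and -0.09 for its event at 15271483, as for that at 44715854. Among events with at least 50 reads, FRA2 had 19 of 57 members higher in Q111 and 9 higher in Q7, and JUND 15 and 6 of 41. Under that filter 53.2% of all FRA2 calls and 41.5% of all JUND calls were higher in Q111, beside 67.9% and 71.4% of the members' calls. The FRA2 log2 ratio at Ppp1r1b was then 0.18. Among events present in both lines FRA2 had 5 and 1 of 34 and JUND 4 and 1 of 25, where 50.8% and 39.4% of all calls were higher in Q111. The log2 ratios were then -0.05 at Bcl11b, 0.18 at Ppp1r1b and -0.27 at Drd2 for FRA2 and -0.08 at Ebf1 for JUND. An added dispersion of 0.05 left 22 of 98 FRA2 events higher in Q111 and 9 higher in Q7 and, for JUND, 12 and 5 of 70. With it 53.3% of all FRA2 calls and 43.1% of all JUND calls were higher in Q111, beside 71.0% and 70.6% of the members' calls. By its construction a 4-fold limit dropped 8 named events, and a 1.5-fold limit added JUND at 98300308. A 4-fold limit left 14 and 5 of 98 for FRA2 and 10 and 4 of 70 for JUND. At that limit 55.0% of all FRA2 calls and 45.7% of all JUND calls were higher in Q111, beside 73.7% and 71.4% of the members' calls. Leaving out Foxp1, chosen after seeing the data, left 20 and 7 of 54 FRA2 events and 15 and 5 of 32 JUND events. Of SOX2 events with at least 50 reads, 9 had FRA2 or JUND within 100 bp. The only other, at 99389393, had its nearest at 841 bp, so the share was above the 76.3% of all SOX2 members. Summing events within 500 bp was also added after seeing the data. Depth limits most the members near the minimum of 21 listed reads.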
